A study of Mus musculus with 50 samples.

Results

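The genes described here are 35 mouse genes of glycolysis and of the response to low oxygen: glucose transporters, the enzymes that turn glucose into pyruvate, lactate dehydrogenases, transporters of lactate, regulators of pyruvate use, and targets of hypoxia-inducible factors. They were chosen by symbol, with no threshold on measured values, from a list written with earlier results of these data known. All 35 were found among the 19455 genes of the deposited table, and 31 passed the filter on low values and were tested. The other 4, Eno2, Pfkfb3, Pfkfb4 and Egln3, did not. The cells were KH2 mouse embryonic stem cells, a hybrid of C57BL/6 and 129/Sv, in 5 genotypes. WT cells were set beside cells labelled as lacking Ythdf1 (Ythdf1_KO), Ythdf2 (Ythdf2_KO) or Ythdf3 (Ythdf3_KO), and beside cells labelled as lacking all 3 (Triple_KO). Ythdf proteins bind N6-methyladenosine, a modified base of mRNA. All groups were grown in serum with LIF and moved to gelatin 48 h before 5 µM actinomycin D, a blocker of transcription, was given for 0, 4 or 8 h. Every group came from replicates A and B, with 4 libraries per genotype at 0 h, 2 at 4 h and 4 at 8 h. The labels do not say whether A and B were separate cultures or clones. P-values therefore measure only the spread between these samples, which may be technical. In the median pair, read counts of A and B differed no more than those of duplicate libraries of 1 replicate.

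Glycolysis splits glucose into pyruvate and yields ATP without oxygen. Pyruvate is then either reduced to lactate and exported or oxidised in mitochondria, where pyruvate dehydrogenase is the gate and its kinases close it. When oxygen falls, hypoxia-inducible factors (HIF) escape degradation by prolyl hydroxylases and raise transcription of glucose transporters, most glycolytic enzymes, the lactate exporter and the mitophagy gene Bnip3. Mouse embryonic stem cells in serum are known for high glycolytic flux.

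HIF binds DNA at the letters ACGTG, which also lie inside the E-box read by MYC and related factors, so the promoters of the members were searched for ACGTG on both strands. RefSeq windows (build GRCm38.p6), reaching from 250 bases before to 50 bases after a start site, were found for 32 of the 35 members. ACGTG stood in 24 of their 45 windows (53.3%) and in 19.6% of all 32841 windows. The second common core, GCGTG, stood in 28 of the 45 windows (62.2%) and in 32.4% of all windows. Windows were not matched for base composition. The stretches below, on each gene's own strand, carry ACGTG or its reverse complement in capitals. They belong to members with called changes described below and are a selection. Further matches lay at position -34 in Ldha, -14 in Slc16a3, -131 in Pgk1 and 8 in Pkm. Positions are counted from the start site at 0.
Ldha, chr7:46845650-46845674, letters from position -144: gtcgcagcacACGTGgagccactct
Ldha, chr7:46845747-46845771, letters from position -47: cccagcctacACGTGggttcccgca
Bnip3, chr7:138909599-138909623, letters from position -107: cacgcgccgcACGTGccacacgctc
Slc16a3, chr11:120949030-120949054, letters from position -27: ggcagcggtgACGTGcgcgggggac
Pgk1, chrX:106186940-106186964, letters from position -150: gtcgtgcaggACGTGacaaatggaa
Pkm, chr9:59657142-59657166, letters from position -75: ccgatccggtCACGTccgcgccgca
Slc2a1, chr4:119108699-119108723, letters from position -36: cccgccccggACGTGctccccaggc
In the 2 Ldha stretches shown and in that of Bnip3 the letters continue the palindrome CACGTG. No ACGTG lay in the windows of Tpi1, Pfkp, Ldhb, Eno1, Gpi1, Pfkl, Pdha1, Eno2, Eno3, Pdk1 and Pfkfb4. This says only that these letters are not in those windows.

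Values are FPM, reads scaled to a library total of 1000000, from libraries of 796921 to 2341410 reads (median 1364119), in which 1 read was worth 0.427 to 1.25 FPM. In lists of 4 library values, the 2 libraries of replicate A come before the 2 of replicate B. Changes are differences of log2(FPM + 1) with limma's SE over n = 2 replicates per genotype and time. That SE takes a spread shared by all groups of the fit and drawn towards that of genes of like level. SEs and p-values therefore do not measure a gene's own 2 replicates alone. Adjusted p-values are limma's over all genes tested, and a gene rose or fell where that p was under 0.05. Because reads came from the 3′ end and no source used here gives the edited parts of the reader genes, reader levels cannot check the labels, and groups are named by label. Ythdf2 had a median of 32.4 FPM in Ythdf2_KO against 53.4 in WT and 87.8 in Triple_KO, while Ythdf1 in Ythdf1_KO (55.8 against 55.1) and Ythdf3 in Ythdf3_KO (23.7 against 23.2) stood near WT. Of 12 stem cell markers, none was at 0 in a whole genotype at 0 h, although Nanog was near 0 (0 to 3.38 FPM in WT and 2.16 to 3.07 in Triple_KO). Their summed level was 2728 to 2882 FPM in Triple_KO, 3069 to 3383 in Ythdf1_KO, 3189 to 3356 in Ythdf2_KO and 3312 to 3525 in Ythdf3_KO against 3183 to 3377 in WT. The sum of 15 fibroblast markers was 455 to 546 FPM in Triple_KO, 406 to 489 in Ythdf1_KO, 319 to 348 in Ythdf2_KO and 339 to 360 in Ythdf3_KO against 325 to 365 in WT. Lum was at 0 in every genotype and Dcn in WT. The sum of 10 endoderm and trophectoderm markers was 256 to 276 FPM in Triple_KO, 171 to 184 in Ythdf1_KO, 165 to 185 in Ythdf2_KO and 60.9 to 75.2 in Ythdf3_KO against 109 to 126 in WT, with Elf5 at 0 in all but Ythdf2_KO and Gata6 at 0 in Ythdf3_KO. At 0 h 11 of the 12, 9 of the 15 and 3 of the 10 markers passed the filter on low values. The other markers in the sums were on few reads. These sums moved with genotype, and their part in the results below was not tested. In bulk samples, fewer cells of a type and less RNA per cell cannot be told apart.

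At 0 h many glycolytic enzymes were higher than WT in Ythdf2_KO and Ythdf3_KO and lower than WT in Triple_KO. In Ythdf2_KO, 14 of the 31 members tested rose and 0 fell. Over all genes tested 3.98% rose and 4.22% fell, and the median change was 0.25 for the members against -0.025 for all genes. In Ythdf3_KO, 12 rose and 0 fell, where 2.47% of all genes rose and 1.99% fell, with medians of 0.21 and -0.011. In Triple_KO, 15 fell and 5 rose, where 7.65% of all genes fell and 14.3% rose, with medians of -0.26 and 0.071. The Triple_KO member median was -0.15 without WT replicate B and -0.11 with no filter. In Ythdf1_KO, 3 rose and 0 fell, where 1.72% of all genes rose and 0.897% fell, and both medians were 0.019. At an unadjusted p under 0.05 the members lower than WT numbered 2 in Ythdf1_KO, 0 in Ythdf2_KO and 1 in Ythdf3_KO, and edgeR called 0 in each. After TMM scaling 3 members rose in Ythdf1_KO, 17 in Ythdf2_KO and 14 in Ythdf3_KO with 0 lower, and 16 fell and 4 rose in Triple_KO. That scaling changed the split of all genes, from 346 higher and 367 lower to 530 and 269 in Ythdf2_KO, from 215 and 173 to 332 and 155 in Ythdf3_KO, and from 1241 and 665 to 965 and 849 in Triple_KO. Eno1 and Eno1b, whose reads cannot be told apart, are both in these counts. Taken as 1 member, 13 of 30 rose in Ythdf2_KO, 11 rose in Ythdf3_KO, and 14 fell and 5 rose in Triple_KO. All these comparisons share the WT libraries, so they are set side by side and are not independent of each other.

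**Figure D1:**
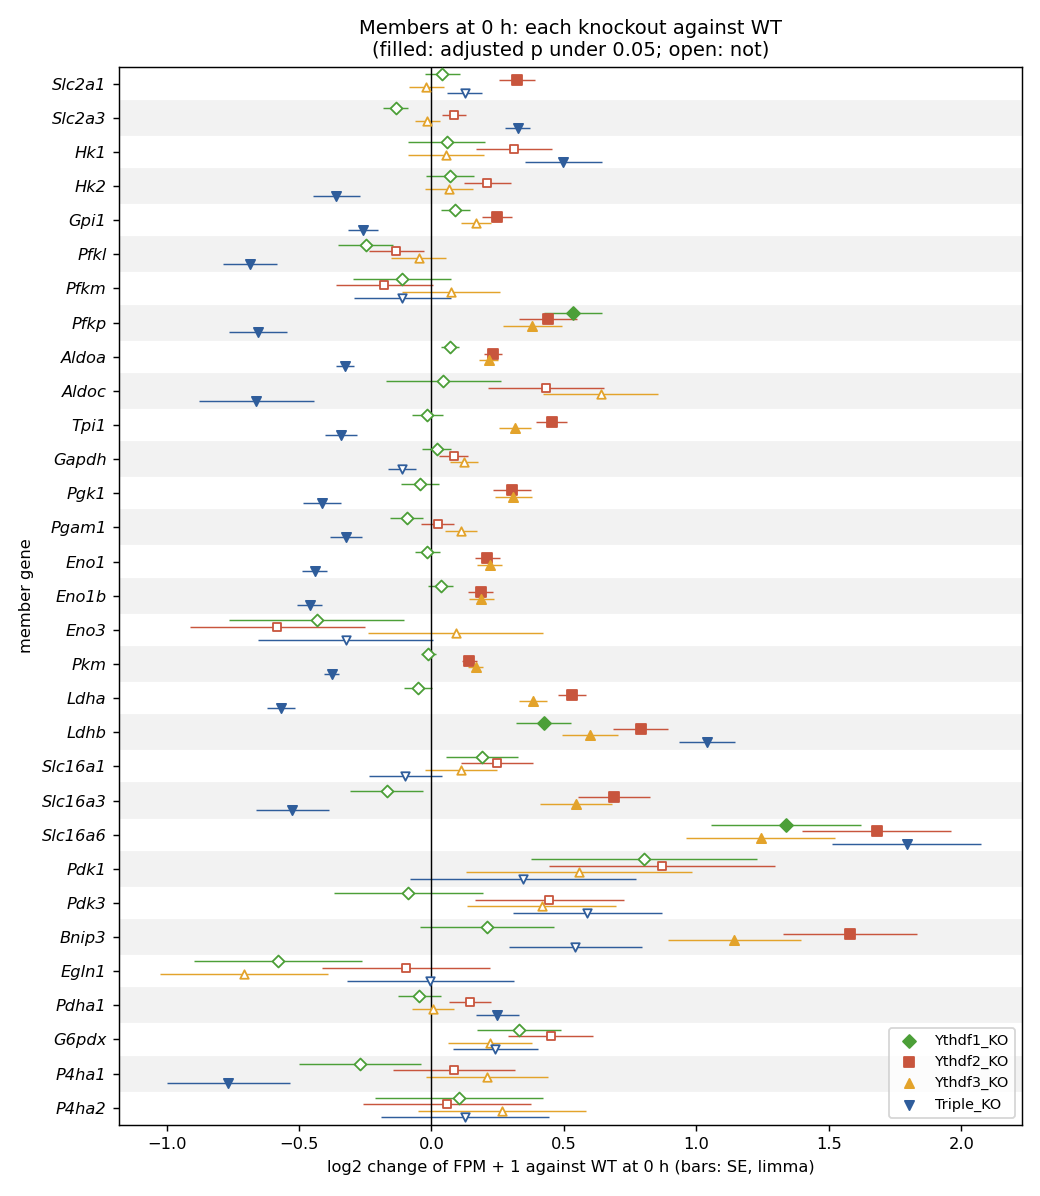
Log2 change of FPM + 1 against WT at 0 h (horizontal axis) for the 31 tested members (vertical axis, ordered by role), with 1 symbol per knockout and SE bars. Filled symbols passed the test. Ythdf2_KO and Ythdf3_KO symbols of Aldoa to Ldha lie mostly right of 0 and Triple_KO symbols left of it, while Ldhb and Slc16a6 lie right of 0 in all 4 knockouts.

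The counts for single knockouts rest on few replicates. Without WT replicate A or without Ythdf1_KO replicate A, Ldhb (0.39 and 0.41) and Slc16a6 (0.84 and 1.12) no longer passed in Ythdf1_KO, and Pfkp (0.47) was lost without Ythdf1_KO replicate B. In Ythdf2_KO, 10 to 14 members passed when 1 replicate was left out: Eno1b, Pkm, Pfkp and Pgk1 (0.17, 0.11, 0.38 and 0.27) were lost without Ythdf2_KO replicate B, and Eno1 and Eno1b (0.15 and 0.15) without WT replicate A. In Ythdf3_KO, 7 to 11 passed. Eno1b, Pfkp, Pgk1, Bnip3 and Slc16a3 (0.17, 0.30, 0.29, 0.89 and 0.41) were lost without Ythdf3_KO replicate B, and Eno1 (0.18) without Ythdf3_KO replicate A. Eno1, Eno1b, Pfkp, Pgk1 and Slc16a6 (0.16, 0.15, 0.37, 0.27 and 0.74) were lost in Ythdf3_KO without WT replicate A, and Pfkp (0.39) also without WT replicate B. In Triple_KO, 17 to 18 passed. Aldoc (-0.66 without WT replicate A, -0.66 without WT replicate B, -0.41 without Triple_KO replicate B), Pdha1 (0.13 without WT replicate A, 0.21 without Triple_KO replicate B), P4ha1 (-0.56 without WT replicate B, -0.33 without Triple_KO replicate A), Hk1 (0.44 without WT replicate B, 0.42 without Triple_KO replicate A) and Hk2 (-0.25 without Triple_KO replicate B) were the members lost. Other members passed only under another setting. In Ythdf2_KO, G6pdx (0.50), Hk2 (0.27) and Slc2a3 (0.14) did so after TMM scaling and G6pdx (0.57) also without WT replicate A, and in Ythdf3_KO Aldoc (0.66 and 0.65) and Gpi1 (0.20 and 0.17) did so after TMM scaling and by edgeR. The spread pooled over all times gave 0 members in Ythdf1_KO and 5 in Ythdf3_KO, and no filter on low values gave 1 and 4. Pooling also lowered the count of Triple_KO to 14 and that of Ythdf2_KO to 11. Triple_KO then lost Slc16a3, Hk1, Hk2, Aldoc, P4ha1 and Pdha1, while Ythdf2_KO lost Slc2a1, Pfkp and Eno1b. With no filter, 17 members passed for Triple_KO and 11 for Ythdf2_KO. In Ythdf3_KO that setting lost Aldoa, Tpi1, Pkm, Eno1, Eno1b, Pgk1, Pfkp and Slc16a6, with limma's adjusted p from 0.0546 to 0.114. Ythdf2_KO lost Eno1, Eno1b and Pkm (adjusted p = 0.0553, 0.0553 and 0.0767), and Triple_KO lost Aldoc, P4ha1 and Pdha1. The log2 changes themselves stayed the same.

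Glucose enters these cells through facilitative transporters. Slc2a1 encodes the widely expressed basal glucose transporter. At 0 h its level was 208, 193, 215 and 182 FPM in WT, 248, 244, 247 and 259 in Ythdf2_KO and 209, 214, 221 and 227 in Triple_KO. The 4 Ythdf2_KO libraries all stood above the WT libraries, by 0.32 ± 0.066 (adjusted p = 0.000113), whereas those of Triple_KO overlapped WT (0.13 ± 0.066, adjusted p = 0.173), as did Ythdf1_KO (184 to 218 FPM) and Ythdf3_KO (185 to 211 FPM). Slc2a3, the high-affinity glucose transporter, was 596, 597, 610.1 and 617 FPM in Triple_KO against 505, 453, 509.8 and 466 in WT. All Triple_KO libraries were above all WT libraries, by 0.33 ± 0.046 (adjusted p = 5.25e-10). Slc2a3 passed in no single knockout against WT, with changes of -0.14, 0.085 and -0.016 in Ythdf1_KO, Ythdf2_KO and Ythdf3_KO.

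Hexokinases trap glucose in the cell by phosphorylation, and the 2 members of this step went opposite ways in Triple_KO. Hk1 was 32.1, 37.2, 26.5 and 38.4 FPM in WT and 47.2, 52.6, 42.7 and 47.2 in Triple_KO, a rise of 0.50 ± 0.14 (adjusted p = 0.0057) with no overlap. Hk2, the inducible hexokinase, was 110.4, 101, 115 and 108 FPM in WT and 92.00, 90.2, 73.4 and 83.3 in Triple_KO, a fall with no overlap (-0.36 ± 0.09, adjusted p = 0.000959). In the single knockouts Hk1 (30.7 to 37.6, 35.9 to 49.5 and 31.6 to 39.00 FPM in Ythdf1_KO, Ythdf2_KO and Ythdf3_KO) and Hk2 (94.8 to 125, 116 to 141 and 98.7 to 128 FPM) did not pass.

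Gpi1, which converts glucose phosphate to fructose phosphate, rose in Ythdf2_KO and fell in Triple_KO. Its values were 295, 320.3, 298 and 308 FPM in WT, 358, 363, 367 and 362 in Ythdf2_KO and 261, 265, 237 and 258 in Triple_KO. The 3 groups did not overlap, and the changes were 0.25 ± 0.056 (adjusted p = 0.000576) and -0.26 ± 0.056 (adjusted p = 8.82e-05). In Ythdf1_KO (309 to 346 FPM) and Ythdf3_KO (333 to 349 FPM) Gpi1 did not pass, with changes of 0.09 and 0.17.

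Phosphofructokinase commits sugar to glycolysis, and its 3 genes behaved differently. Pfkp, the platelet-type subunit, rose in each single knockout, by 0.54 ± 0.11 (adjusted p = 0.00037) in Ythdf1_KO, 0.44 ± 0.11 (adjusted p = 0.00254) in Ythdf2_KO and 0.38 ± 0.11 (adjusted p = 0.0201) in Ythdf3_KO, and fell in Triple_KO (-0.65 ± 0.11, adjusted p = 2.41e-07). Its values were 57.4, 65.9, 51.2 and 75.5 FPM in WT, 77.3, 95.2, 94.9 and 94.2 in Ythdf1_KO, 98.9, 65.8, 84.5 and 91.4 in Ythdf2_KO, 74.9, 77.99, 81.00 and 90.2 in Ythdf3_KO and 36.8, 41.5, 41.6 and 36.1 in Triple_KO. Triple_KO was below every WT library and Ythdf1_KO above every one, but Ythdf2_KO and Ythdf3_KO overlapped WT. Pfkl, the liver-type subunit, was 98.7, 86.2, 97.7 and 86.7 FPM in WT and 52.7, 51.5, 59.9 and 64.5 in Triple_KO. It fell there by 0.68 ± 0.10 (adjusted p = 6.86e-09) with no overlap, and did not pass in Ythdf1_KO (70.8 to 85.5 FPM), Ythdf2_KO (78.8 to 89.8 FPM) or Ythdf3_KO (82.5 to 101 FPM). Pfkm, the muscle-type subunit, at 15.1 to 30.98 FPM over all 0 h libraries, passed in no knockout, with changes from -0.18 to 0.074.

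Aldolase splits the phosphorylated sugar, and Tpi1 interconverts its products. Aldoa was 955, 1056, 997 and 1067 FPM in WT, 1197, 1214, 1168 and 1200 in Ythdf2_KO, 1082, 1225, 1178 and 1249 in Ythdf3_KO and 847, 854, 759.6 and 788 in Triple_KO. Every library of Ythdf2_KO and Ythdf3_KO was above the WT libraries and every one of Triple_KO below them. The changes were 0.23 ± 0.035 (adjusted p = 1.51e-08), 0.22 ± 0.035 (adjusted p = 3.87e-07) and -0.33 ± 0.035 (adjusted p = 1.21e-16), while Ythdf1_KO (1017 to 1111 FPM) overlapped WT with 0.069 ± 0.035 (adjusted p = 0.348).

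Tpi1 showed the same order. It was 265, 279.7, 243 and 298 FPM in WT, 358, 395, 358 and 374 in Ythdf2_KO, 324, 341, 349 and 333 in Ythdf3_KO and 245, 223, 208 and 183 in Triple_KO. Ythdf2_KO and Ythdf3_KO lay above all WT libraries, by 0.45 ± 0.059 (adjusted p = 4.97e-11) and 0.31 ± 0.059 (adjusted p = 2.99e-05), and Ythdf1_KO (246 to 289 FPM) overlapped WT. Triple_KO fell by 0.34 ± 0.059 (adjusted p = 5.63e-07), although its highest library, 245 FPM, was above the lowest WT library, 243 FPM. Aldoc, the brain-type aldolase, fell in Triple_KO, from 13.6, 16.9, 19.4 and 11.9 FPM in WT to 9.81, 12.7, 9.18 and 6.26 (-0.66 ± 0.22, adjusted p = 0.0167), on few reads and with overlap. Its ranges were 9.04 to 28.5, 16.3 to 27.6 and 19.5 to 27.9 FPM in Ythdf1_KO, Ythdf2_KO and Ythdf3_KO, where it did not pass.

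The later steps make ATP, and Pgk1 and Pkm are the enzymes that do so. Pgk1 was 186, 168, 189.6 and 182 FPM in WT, 219, 219.7, 219 and 239 in Ythdf2_KO, 215, 229, 236 and 219.7 in Ythdf3_KO and 135, 137, 119 and 154 in Triple_KO. No library of these knockouts fell within the WT range, and the changes were 0.30 ± 0.071 (adjusted p = 0.00088), 0.31 ± 0.071 (adjusted p = 0.00123) and -0.41 ± 0.071 (adjusted p = 3.83e-07). In Ythdf1_KO (165, 166, 165 and 212 FPM) 3 libraries lay below WT and 1 above it, with -0.043 ± 0.071 (adjusted p = 0.852).

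Pkm, pyruvate kinase of muscle and dividing cells, was 1632, 1580, 1565 and 1627 FPM in WT, 1671, 1787, 1753 and 1861 in Ythdf2_KO, 1821, 1817, 1806 and 1746 in Ythdf3_KO and 1173, 1255, 1214 and 1293 in Triple_KO. Reads near the 3′ end do not separate its splice forms. Triple_KO fell by 0.38 ± 0.029 (adjusted p = 2.17e-28), Ythdf3_KO rose by 0.17 ± 0.029 (adjusted p = 3.46e-06) and Ythdf2_KO by 0.14 ± 0.029 (adjusted p = 8.80e-05), all clear of WT, and Ythdf1_KO (1465 to 1667 FPM) gave -0.012 ± 0.029 (adjusted p = 0.904).

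Pgam1, phosphoglycerate mutase, was 289, 256, 263 and 264 FPM in WT and 212, 215, 204 and 225 in Triple_KO, a change of -0.32 ± 0.061 (adjusted p = 5.71e-06) with no overlap, and in the single knockouts its changes were -0.094, 0.023 and 0.11 with none passing (232 to 268, 241 to 304 and 284 to 294 FPM). Eno1, the enolase of most tissues, was 463, 475, 509.8 and 509.6 FPM in WT, 570.2, 572, 547 and 573 in Ythdf2_KO, 576, 599, 537 and 567 in Ythdf3_KO and 357, 356, 339 and 389.7 in Triple_KO. All 3 knockouts were clear of WT, with 0.21 ± 0.047 (adjusted p = 0.000446), 0.22 ± 0.047 (adjusted p = 0.000382) and -0.44 ± 0.047 (adjusted p = 1.63e-16), and Ythdf1_KO (466 to 513 FPM) was not. Eno1b is a near-identical copy, and its reads cannot be told apart from those of Eno1. Its changes of 0.19, 0.19 and -0.46 (adjusted p = 0.00303, 0.0046 and 1.65e-17) are therefore not a second, separate result, although counts of 31 members hold both genes. Its ranges were 462 to 499.8, 483 to 488, 511 to 579.5, 528 to 561 and 337 to 361 FPM in WT, Ythdf1_KO, Ythdf2_KO, Ythdf3_KO and Triple_KO. Gapdh, often used as a reference gene, was at 312 to 399 FPM over all 0 h libraries and passed in no knockout against WT, with changes of 0.019, 0.083, 0.12 and -0.11 in the same order of knockouts. After TMM scaling it passed in Triple_KO (-0.17). The muscle enolase Eno3, at 2.99 to 10.6 FPM, did not pass either.

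**Figure D2:**
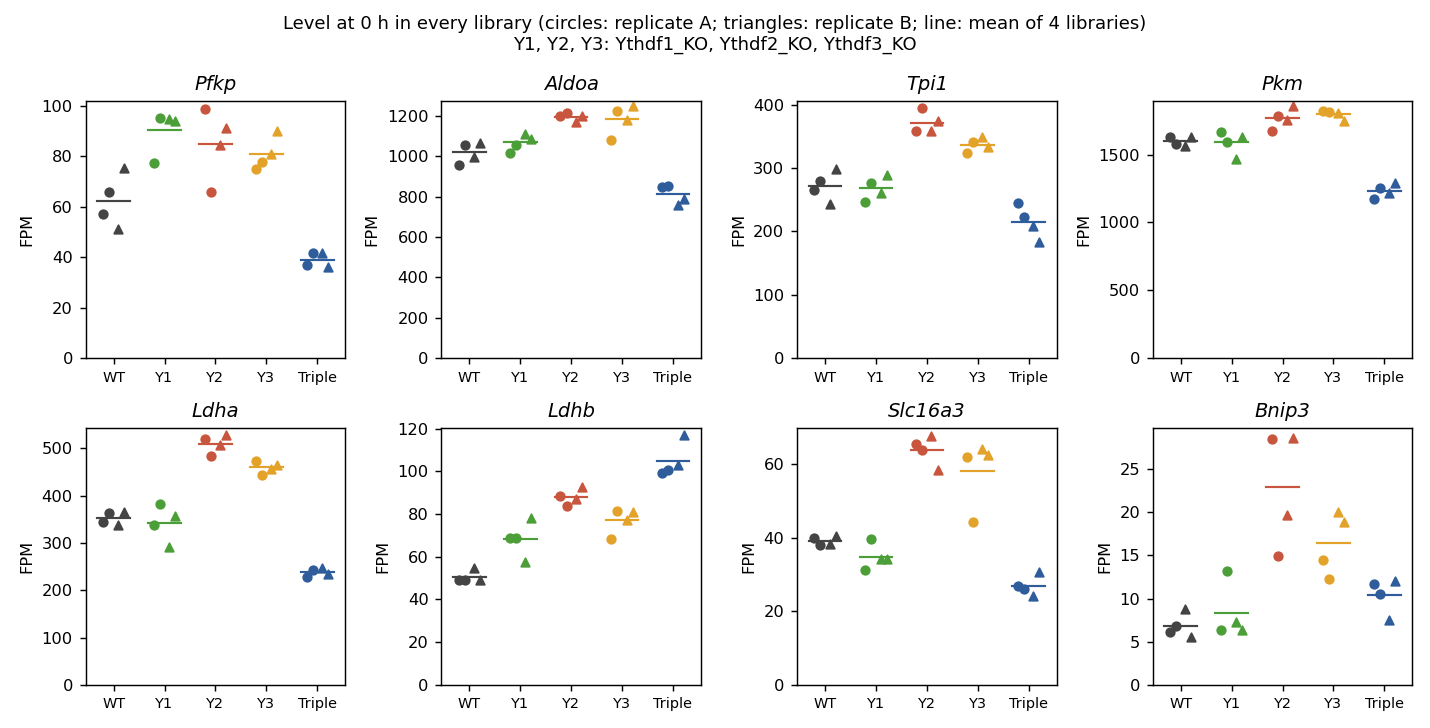
FPM at 0 h (vertical axis, from 0) of 8 members in every library of the 5 genotypes (horizontal axis), with replicate A as circles, replicate B as triangles and a line at the mean of 4 libraries. Ldha runs from 338 to 366 FPM in WT, 485 to 529 in Ythdf2_KO and 228 to 248 in Triple_KO, while Ldhb is highest in Triple_KO, at 99.4 to 117 FPM.

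Lactate dehydrogenase is a tetramer of Ldha and Ldhb chains, and the 2 genes diverged in Triple_KO. Ldha, whose chain favours pyruvate reduction, was 344, 363, 338 and 366 FPM in WT, 338, 383, 291 and 357 in Ythdf1_KO, 519.7, 485, 508 and 529 in Ythdf2_KO, 474, 444, 457 and 466 in Ythdf3_KO and 228, 242, 248 and 234 in Triple_KO. It rose by 0.53 ± 0.053 (adjusted p = 4.70e-18) in Ythdf2_KO and 0.38 ± 0.053 (adjusted p = 1.70e-09) in Ythdf3_KO and fell by 0.57 ± 0.053 (adjusted p = 9.30e-21) in Triple_KO. None of these 12 libraries lay within the WT range, and Ythdf1_KO (-0.05 ± 0.053, adjusted p = 0.736) spanned it. Ldhb, whose chain favours lactate oxidation, was 49.3, 49.02, 54.7 and 48.9 FPM in WT, 68.8, 68.8, 57.7 and 78.3 in Ythdf1_KO, 88.5, 83.8, 87.1 and 92.4 in Ythdf2_KO, 68.5, 81.2, 77.3 and 81.04 in Ythdf3_KO and 99.4, 101, 103 and 117 in Triple_KO. All knockout libraries were above all WT libraries. The rises were 0.42 ± 0.10 (adjusted p = 0.00568), 0.79 ± 0.10 (adjusted p = 1.33e-10), 0.60 ± 0.10 (adjusted p = 5.49e-06) and 1.04 ± 0.10 (adjusted p = 4.28e-18).

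Monocarboxylate transporters carry lactate and pyruvate across the membrane. Slc16a3, the lactate exporter of glycolytic cells and a HIF target, was 40.1, 38.03, 38.3 and 40.5 FPM in WT, 31.2, 39.6, 34.3 and 34.4 in Ythdf1_KO, 65.5, 64.1, 67.8 and 58.4 in Ythdf2_KO, 62.1, 44.3, 64.2 and 62.7 in Ythdf3_KO and 26.99, 26.02, 24.3 and 30.8 in Triple_KO. Ythdf2_KO and Ythdf3_KO were above WT (0.69 ± 0.14, adjusted p = 6.06e-05 and 0.55 ± 0.14, adjusted p = 0.00475) and Triple_KO below it (-0.53 ± 0.14, adjusted p = 0.0016), each with no overlap. Ythdf1_KO did not pass (-0.17 ± 0.14, adjusted p = 0.646).

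Slc16a6, a family member that carries ketone bodies in liver, was near the level of a few reads. It was 2.47, 1.69, 8.83 and 2.80 FPM in WT, 8.54, 15.98, 7.30 and 9.55 in Ythdf1_KO, 8.13, 13.8, 20.1 and 11.9 in Ythdf2_KO, 14.5, 5.34, 12.6 and 7.14 in Ythdf3_KO and 13.5, 14.4, 15.7 and 12.5 in Triple_KO. It rose in all 4 knockouts, by 1.34 ± 0.28 (adjusted p = 0.000579), 1.68 ± 0.28 (adjusted p = 8.54e-07), 1.24 ± 0.28 (adjusted p = 0.00114) and 1.79 ± 0.28 (adjusted p = 3.09e-08), and only Triple_KO was clear of the highest WT library. In WT only the library at 8.83 FPM was above the filter's 5 FPM, so Slc16a6 was tested through its level in the knockouts. In Ythdf1_KO and Ythdf3_KO it did not pass with no filter (limma's adjusted p = 0.113 and 0.114). With the spread pooled over all times it did not pass there either (adjusted p = 0.348 and 0.317). Slc16a1, the transporter of most tissues, at 32.8 to 55.6 FPM over all 0 h libraries, passed in none, with changes from -0.099 to 0.25.

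Bnip3 marks mitochondria for removal when oxygen is low. It was 6.17, 6.76, 8.83 and 5.59 FPM in WT, 6.41, 13.2, 7.30 and 6.37 in Ythdf1_KO, 28.4, 14.97, 19.7 and 28.7 in Ythdf2_KO, 14.5, 12.3, 19.99 and 18.9 in Ythdf3_KO and 11.7, 10.5, 7.56 and 12.04 in Triple_KO. Ythdf2_KO (1.58 ± 0.25, adjusted p = 1.54e-07) and Ythdf3_KO (1.14 ± 0.25, adjusted p = 0.000702) were above every WT library. Triple_KO gave 0.54 ± 0.25 (adjusted p = 0.113) and Ythdf1_KO 0.21 ± 0.25 (adjusted p = 0.776), neither of which passed.

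The collagen prolyl hydroxylase P4ha1, a HIF target, fell in Triple_KO from 11.1, 16.9, 20.6 and 16.8 FPM in WT to 7.36, 5.54, 14.04 and 11.1 (-0.77 ± 0.23, adjusted p = 0.00781), with overlap, and its ranges were 10.2 to 16.1, 14.9 to 21.1 and 17.1 to 21.4 FPM in Ythdf1_KO, Ythdf2_KO and Ythdf3_KO. Its relative P4ha2, at 3.78 to 13.4 FPM over the 20 libraries of 0 h, passed in none, with changes of 0.10, 0.059, 0.26 and 0.12 in Ythdf1_KO, Ythdf2_KO, Ythdf3_KO and Triple_KO. Pdha1, the catalytic subunit of pyruvate dehydrogenase, was 132, 115, 134 and 159 FPM in WT and 162, 149, 165 and 162 in Triple_KO, a rise of 0.25 ± 0.08 (adjusted p = 0.014) that did not pass after TMM scaling (0.19, adjusted p = 0.067). Its ranges in the single knockouts were 120.4 to 143, 143 to 154 and 125 to 153 FPM, with changes of -0.046, 0.15 and 0.0057. The pyruvate dehydrogenase kinases Pdk1 and Pdk3, the oxygen sensor Egln1, and G6pdx, the first enzyme of the pentose phosphate path, did not pass in any knockout. Pdk1 was at 0 to 7.89 FPM, Pdk3 at 5.56 to 14.04, Egln1 at 2.78 to 12.3 and G6pdx at 20.6 to 41.3 over the 20 libraries of 0 h, so changes of the first 3 were measured on few reads. Of the 4 members not tested, the highest replicate means at 0 h were 3.06 FPM for Eno2, the neuronal enolase, 6.84 and 3.26 for the phosphofructokinase regulators Pfkfb3 and Pfkfb4, and 3.67 for the HIF target Egln3.

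Set against each other, Ythdf2_KO stood above Ythdf1_KO in 12 of 31 members and below it in 0, where 1.3% of all genes were higher and 2.02% lower. The largest differences were Bnip3 (1.37 ± 0.25, adjusted p = 1.97e-05), Slc16a3 (0.86 ± 0.14, adjusted p = 3.42e-07), Ldha (0.58 ± 0.053, adjusted p = 1.11e-20) and Tpi1 (0.47 ± 0.059, adjusted p = 1.47e-11), and the others were Slc2a1 (0.28), Slc2a3 (0.22), Aldoa (0.16), Pgk1 (0.35), Eno1 (0.23), Eno1b (0.15), Pkm (0.15) and Ldhb (0.37). Ythdf3_KO stood above Ythdf1_KO in 9 and below it in 0, where 0.954% of all genes were higher and 1.28% lower. These were Bnip3 (0.93 ± 0.25, adjusted p = 0.0178), Slc16a3 (0.72 ± 0.14, adjusted p = 8.35e-05), Ldha (0.43 ± 0.053, adjusted p = 4.57e-12), Tpi1 (0.33), Pgk1 (0.35), Eno1 (0.24), Pgam1 (0.21), Pkm (0.18) and Aldoa (0.15). Ythdf2_KO and Ythdf3_KO differed in 1 member, Slc2a1, which was higher in Ythdf2_KO by 0.34 ± 0.066 (adjusted p = 0.000116), where 0.747% of all genes were higher and 0.448% lower. At an unadjusted p under 0.05 the members lower in these 3 comparisons numbered 0, 0 and 1, and edgeR called 0 in each. With Eno1 and Eno1b taken as 1 member, 11 of 30 were higher in the first of these comparisons and 9 in the second. TMM scaling turned the split of all genes from 113 higher and 176 lower to 184 and 128 in the first and from 83 and 111 to 114 and 91 in the second. Leaving out 1 replicate left 7 to 9 members for Ythdf2_KO against Ythdf1_KO (7 without Ythdf2_KO replicate B), 5 to 8 for Ythdf3_KO against Ythdf1_KO (5 without Ythdf3_KO replicate B) and 0 to 1 for Ythdf2_KO against Ythdf3_KO, where Slc2a1 was 0.29 without Ythdf3_KO replicate B. In the first comparison, Ldhb (0.34 to 0.40) and Eno1b (0.14 to 0.16) were lost whichever replicate was left out. Also lost there were Aldoa (0.12) and Pgk1 (0.26) without Ythdf1_KO replicate A, Slc2a1 (0.25) without Ythdf1_KO replicate B, Aldoa (0.15) without Ythdf2_KO replicate A, and Pkm (0.12), Slc2a1 (0.26) and Slc2a3 (0.19) without Ythdf2_KO replicate B. In the second comparison, Bnip3 (0.68), Slc16a3 (0.58), Pgam1 (0.21) and Aldoa (0.11) were lost without Ythdf3_KO replicate B, and Eno1 (0.19) and Pgam1 (0.20) without Ythdf3_KO replicate A. Bnip3 (0.74) and Pgam1 (0.15) were lost there without Ythdf1_KO replicate B, and Aldoa (0.10) and Pgk1 (0.26) without Ythdf1_KO replicate A.

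Triple_KO stood below the mean of the 3 single knockouts in 16 of 31 members and above it in 4, where 7.61% of all genes were lower and 15.4% higher. The member median was -0.40 and that of all genes 0.079. With Eno1 and Eno1b taken as 1 member, 15 of 30 were lower. TMM scaling turned the split of all genes from 1341 higher and 662 lower to 873 and 1083. The largest falls were Pfkp (-1.11 ± 0.09, adjusted p = 3.88e-26), Aldoc (-1.03 ± 0.18, adjusted p = 4.16e-07), Slc16a3 (-0.88 ± 0.11, adjusted p = 3.53e-12), Ldha (-0.86 ± 0.043, adjusted p = 4.05e-54) and P4ha1 (-0.77 ± 0.19, adjusted p = 0.000585). The others were Eno1b (-0.60), Pgk1 (-0.60), Tpi1 (-0.59), Eno1 (-0.58), Pfkl (-0.54), Aldoa (-0.50), Pkm (-0.48), Hk2 (-0.47), Gpi1 (-0.43), Pgam1 (-0.34) and Gapdh (-0.19). Ldhb (0.44 ± 0.086, adjusted p = 1.16e-05), Hk1 (0.36 ± 0.12, adjusted p = 0.0167), Slc2a3 (0.35 ± 0.038, adjusted p = 3.57e-16) and Pdha1 (0.21 ± 0.065, adjusted p = 0.0082) were above the mean of the single knockouts, and after TMM scaling Hk1 (0.26) and Pdha1 (0.12) no longer passed. Without Triple_KO replicate A, P4ha1 was -0.34, Hk1 0.28 and Gapdh -0.15, none past the threshold, and 17 members passed. Hk1 was also lost without Ythdf2_KO replicate A (0.30) or Triple_KO replicate B (0.43), and Pdha1 without Triple_KO replicate B (0.18).

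Actinomycin D stops new transcription, so the level left over time is read here as RNA kept relative to the library total. In WT the members held their level better than most genes did: after 8 h their median change was -0.12 against -0.81 over all 9078 genes tested, and after 4 h 0.064 against -0.37. At 8 h 8 members had fallen and 4 had risen, where 55.2% of all genes fell and 1.73% rose. At 4 h 5 had fallen and 7 had risen, where 27.3% fell and 3.61% rose. With Eno1 and Eno1b taken as 1 member, 3 had risen at 8 h and 6 at 4 h. Listed genes took a falling part of the WT reads, 42.4% to 43.9% at 0 h but 32.9% to 33.4% at 8 h. A rise here is a gain in share of the total, not of molecules. Without WT replicate B the member median was 0.15 at 4 h and -0.061 at 8 h, and without WT replicate A it was 0.10 at 4 h. TMM scaling was run on the reads in listed genes, so it also replaced the library total as the denominator. The 2 changes together moved the median of all genes by 0.32 at 4 h and 0.62 at 8 h. They turned the member median at 8 h to 0.52 (0.39 at 4 h). The members then numbered 14 up and 2 down at 4 h and 16 up and 2 down at 8 h, with all genes at 1137 up and 1317 down (328 and 2474 before) and 1401 up and 2236 down (157 and 5007 before).

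The 4 lowest values at 8 h were those of Slc2a1 (-1.65 ± 0.099, adjusted p = 1.01e-22), Hk2 (-1.53 ± 0.16, adjusted p = 1.00e-12), Egln1 (-1.47 ± 0.50, adjusted p = 0.00968) and Pdha1 (-0.83 ± 0.11, adjusted p = 6.80e-09). Slc2a1 fell from 208, 193, 215 and 182 FPM at 0 h to 125 and 121 at 4 h and 53.7, 69.2, 71.7 and 58.1 at 8 h. Hk2 fell from 110.4, 101, 115 and 108 to 56.8 and 87.7 and 30.8, 48.2, 35.4 and 35.2 FPM. Both were lower in every treated library than in any untreated one. Egln1 did not pass without WT replicate A (-1.17) or after TMM scaling (-0.93), nor did Pdha1 after TMM scaling (-0.16). The 4 highest values were those of P4ha2 (0.58 ± 0.43, adjusted p = 0.248) and P4ha1 (0.27 ± 0.31, adjusted p = 0.479), which did not pass, and of Eno1 (0.23 ± 0.059, adjusted p = 0.000682) and Gapdh (0.21 ± 0.062, adjusted p = 0.00325), which did. Eno1b (0.21) and Pkm (0.18) also rose, and Slc2a3 (-0.63), Pfkp (-0.44), Aldoa (-0.20) and Slc16a3 (-0.66) also fell. After TMM scaling Slc2a3, Pfkp and Aldoa had positive values (0.044, 0.22 and 0.48) and Slc16a3 was at -0.0036. Without WT replicate A the rises of Eno1 (0.15), Eno1b (0.16) and Gapdh (0.19) no longer passed, and without WT replicate B the falls of Aldoa (-0.14), Pfkp (-0.43) and Slc16a3 (-0.56) did not. Replicates at 4 h had no duplicate library but were weighted in the fit like the averages at 0 h and 8 h. The SEs and p-values at 4 h may therefore be too small. At 4 h the members past the threshold were Eno1, Eno1b, Gapdh, Pfkl, Gpi1, Pkm and Pgam1 (0.36, 0.36, 0.35, 0.32, 0.29, 0.24 and 0.19) upwards and Slc16a3, Slc2a1, Hk2, Pdha1 and Slc2a3 (-0.91, -0.69, -0.61, -0.40 and -0.20) downwards. Without WT replicate B 7 of the 12 passed, and Pfkl (0.14), Pgam1 (0.078), Gpi1 (0.25), Pdha1 (-0.38) and Slc2a3 (-0.22) did not. Without WT replicate A, Hk2 (-0.35) and Slc2a3 (-0.17) did not.

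**Figure D3:**
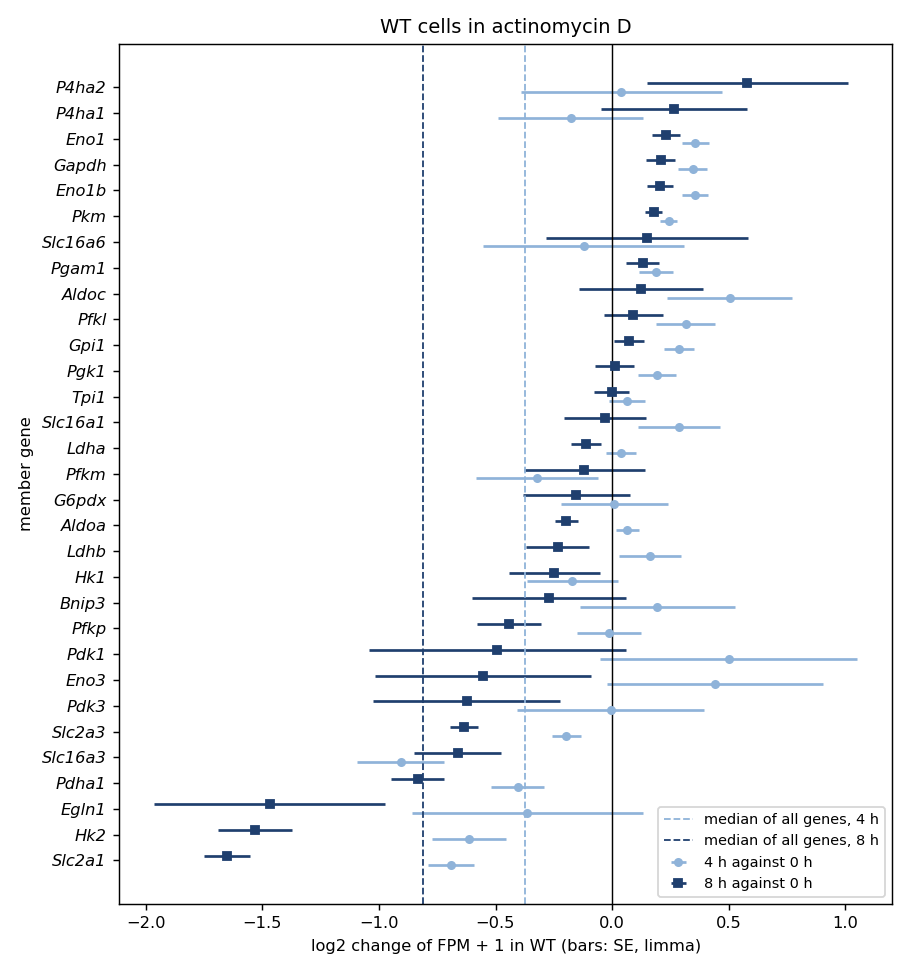
Log2 change of FPM + 1 in WT after 4 h and 8 h of actinomycin D against 0 h (horizontal axis, SE bars) for the 31 tested members (vertical axis, ordered by the 8 h value), with dashed lines at the median of all genes. At 8 h only Pdha1, Egln1, Hk2 and Slc2a1 lie below the all-gene median of -0.81.

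The log2 change from 0 h to 8 h is here called the decay value, and subtracting the WT decay value from that of a knockout asks where RNA was kept or lost more. At 8 h Slc2a1 was kept better than in WT in Ythdf1_KO and Triple_KO. At that time it stood at 102, 134, 127 and 108 FPM in Ythdf1_KO and 172, 128, 161 and 156 in Triple_KO against 53.7, 69.2, 71.7 and 58.1 in WT, 66.5, 70.03, 81.1 and 72.3 in Ythdf2_KO and 61.1, 53.1, 59.5 and 71.9 in Ythdf3_KO. At 4 h it was 140.2 and 114 FPM in Ythdf1_KO, 189 and 181 in Ythdf2_KO, 118 and 124 in Ythdf3_KO and 187 and 195 in Triple_KO against 125 and 121 in WT. The change from 0 h to 4 h was -0.69 in both WT and Ythdf1_KO, with 2 libraries per genotype at 4 h. It was -0.19 in Triple_KO, -0.43 in Ythdf2_KO and -0.70 in Ythdf3_KO, and differences between genotypes at 4 h were not tested. Every 8 h library of Ythdf1_KO and Triple_KO was above every 8 h library of the other 3 genotypes. The decay value was -1.65 in WT, -0.80 in Ythdf1_KO and -0.50 in Triple_KO, which gave differences of 0.85 ± 0.14 (adjusted p = 0.000598) and 1.15 ± 0.14 (adjusted p = 4.62e-09). For Ythdf2_KO and Ythdf3_KO the differences were -0.12 ± 0.14 (adjusted p = 0.955) and -0.02 ± 0.14 (adjusted p = 0.992), neither of which passed.

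Slc2a1 was the 1 member higher in the Ythdf1_KO decay difference, with 0 lower, where 0.0441% of all genes were higher and 0% lower, and it missed the threshold without WT replicate A (0.80, adjusted p = 0.0662) or Ythdf1_KO replicate B (0.81, adjusted p = 0.0623). In Triple_KO 2 members were higher and 0 lower, where 7.22% of all genes were higher and 0.022% lower, with medians of 0.24 for the members and 0.37 for all genes, which TMM scaling turned to -0.094 and 0.076. Slc2a1 held in Triple_KO after TMM scaling (0.82). The second member, Aldoa (0.25 ± 0.069, adjusted p = 0.0126), did not, and its value turned to -0.081, while Pkm then passed downwards (-0.23, adjusted p = 0.00325). TMM scaling also turned the split of all genes from 655 higher and 2 lower to 107 and 44 in Triple_KO, and from 4 and 0 to 4 and 14 in Ythdf1_KO. Aldoa was 792, 924, 798 and 872 FPM in Triple_KO at 8 h against 847, 854, 759.6 and 788 at 0 h, and 894, 924, 867 and 867 in WT at 8 h against 955, 1056, 997 and 1067 at 0 h, so the 2 genotypes overlapped at 8 h. Without WT replicate B or Triple_KO replicate B Aldoa did not pass (0.20 in both cases). The part of reads in listed genes stood at 39.5% to 43.0% at 8 h in Triple_KO against 32.9% to 33.4% in WT, and its part in these differences was not tested.

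In Ythdf2_KO and in Ythdf3_KO 1 member, Pkm, was lower and 0 were higher, with differences of -0.22 ± 0.052 (adjusted p = 0.0482) and -0.22 ± 0.052 (adjusted p = 0.0317). Over all genes 0.176% were lower and 0% higher in Ythdf2_KO, and 0.33% lower and 0% higher in Ythdf3_KO. Pkm was 1646, 1817, 1720 and 1670 FPM in Ythdf2_KO and 1761, 1754, 1683 and 1796 in Ythdf3_KO at 8 h against 1773, 1874, 1842 and 1762 in WT, so the groups overlapped at 8 h but not at 0 h. It missed the threshold when any 1 replicate was left out (values from -0.27 to -0.18 in Ythdf2_KO and from -0.23 to -0.21 in Ythdf3_KO) and after TMM scaling (-0.094 and -0.15). For the counts of 0, members at an unadjusted p under 0.05 numbered 2 lower for Ythdf1_KO, 0 higher for Ythdf2_KO or Ythdf3_KO and 0 lower for Triple_KO, and edgeR called 0 in each. Ldha, with its large changes at 0 h, had decay differences of -0.23, -0.15 and 0.24 in Ythdf2_KO, Ythdf3_KO and Triple_KO, and Ldhb, which rose in all knockouts at 0 h, of 0.14, -0.0057 and 0.43. None of these passed by limma, but Ldha passed in Triple_KO with a plain sum of transcripts (0.24, adjusted p = 0.0454) and by edgeR (0.25, adjusted p = 0.0388).

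**Figure D4:**
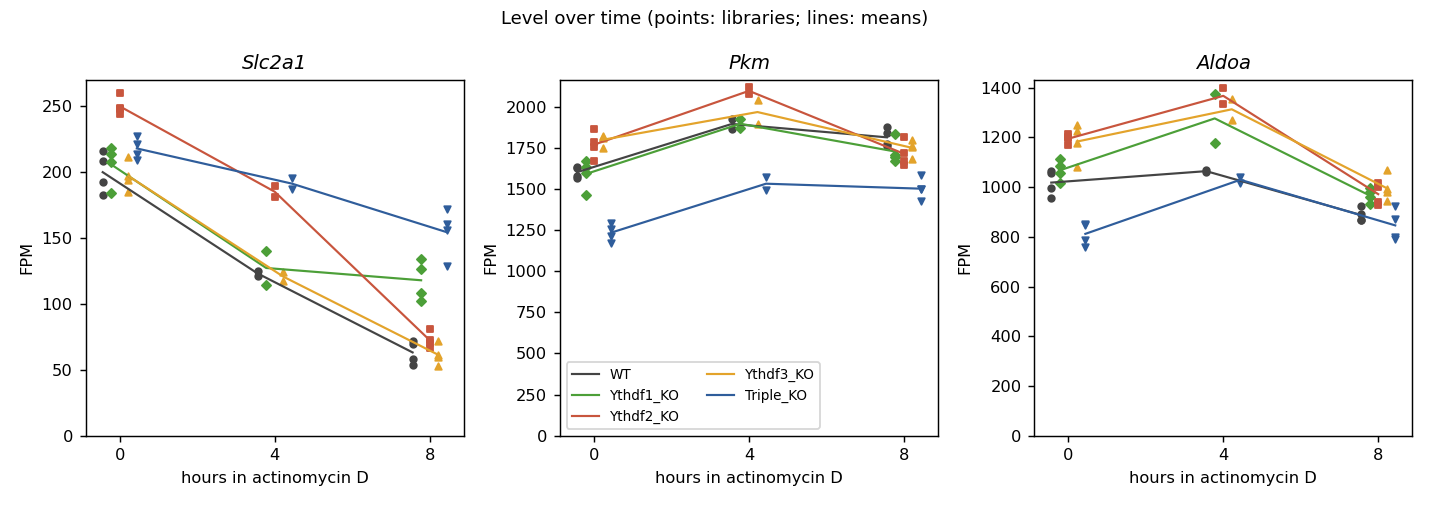
FPM (vertical axis, from 0) of Slc2a1, Pkm and Aldoa over hours in actinomycin D (horizontal axis), with a point for each library, set side by side within a time, and a line through the means of each genotype. Slc2a1 ends at 102 to 134 FPM in Ythdf1_KO and 128 to 172 in Triple_KO, above the 53.7 to 71.7 of WT.

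The other genes of these pathways were read from lists that hold none of the members. Over all genes tested at 0 h, 1.72%, 3.98%, 2.47% and 14.3% rose in Ythdf1_KO, Ythdf2_KO, Ythdf3_KO and Triple_KO. In the same order 0.897%, 4.22%, 1.99% and 7.65% fell. The lists are short, and their counts were not tested against these shares. Of 6 tested HIF pathway genes, Epas1, the gene of a HIF alpha subunit, fell in Ythdf2_KO (-0.82 ± 0.19, adjusted p = 0.00101), Ythdf3_KO (-0.61 ± 0.19, adjusted p = 0.0399) and Triple_KO (-0.99 ± 0.19, adjusted p = 9.56e-06). Hif1a, the gene of the main alpha subunit, did not pass in any knockout (-0.34, -0.41, -0.40 and -0.16 in Ythdf1_KO, Ythdf2_KO, Ythdf3_KO and Triple_KO). No gene of that list rose, with 0, 1, 1 and 0 higher at an unadjusted p under 0.05 in the same order and 0 higher by edgeR in each. Of 27 other hypoxia targets tested, 4 rose and 1 fell in Ythdf1_KO, 8 rose and 1 fell in Ythdf2_KO, 4 rose and 1 fell in Ythdf3_KO, and 9 rose and 5 fell in Triple_KO. The list medians were 0.12, 0.19, 0.068 and -0.069 in the same order. The genes of this list named next are a selection. Ak4, a mitochondrial adenylate kinase, rose in all 4 (0.57, 1.08, 0.62 and 1.499), and Ndrg1 rose in Ythdf2_KO, Ythdf3_KO and Triple_KO (1.16, 0.88 and 0.76). The metallothionein Mt2 rose in each single knockout (0.33, 0.64 and 0.19) and fell in Triple_KO (-0.12), while Gys1, muscle glycogen synthase, fell in Triple_KO (-0.81 ± 0.11, adjusted p = 4.41e-11).

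Of 9 other glycolysis genes tested, 1 rose in Ythdf1_KO, 2 in Ythdf2_KO and 2 in Triple_KO, where 1 fell. Over all genes 1.72%, 3.98% and 14.3% rose in these knockouts, and 7.65% fell in Triple_KO. In Ythdf3_KO 0 rose and 0 fell, with 1 higher and 1 lower at an unadjusted p under 0.05 and 0 by edgeR. Over all genes 2.47% rose and 1.99% fell there. The list medians were -0.076, 0.11, -0.069 and 0.0083 in Ythdf1_KO, Ythdf2_KO, Ythdf3_KO and Triple_KO. Emb, a chaperone of monocarboxylate transporters, rose in Ythdf1_KO, Ythdf2_KO and Triple_KO (1.18, 1.31 and 0.88), and Fbp2, a fructose bisphosphatase that opposes phosphofructokinase, rose in Ythdf2_KO and Triple_KO (0.88 and 1.93). Bsg, the other chaperone of these transporters, fell in Triple_KO (-0.20 ± 0.042, adjusted p = 4.57e-05). Of 6 pentose phosphate genes, Pgd rose in Ythdf2_KO and Triple_KO (0.25 and 0.43) and Rpia in Triple_KO (0.84). Of 7 pyruvate oxidation genes tested with limma, 0 passed in any knockout at 0 h, with 1 lower in Ythdf1_KO, 1 higher in Ythdf2_KO and 0 in the other two at an unadjusted p under 0.05, and 0 by edgeR.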

How the data were processed

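Poly(A) 3′ end sequencing gave 50 libraries of mouse embryonic stem cells, described by genotype, time and replicate letter. The tools named in the submitters' processing notes are Bowtie2 and CASAVA 1.8.2, with build mm10, and no source used here states filters or counting rules. The deposited values are FPM, equal to RPM, as the authors scaled them to each library's total, per transcript. Nearly every value is a whole multiple of 1 read (100% within 0.1 read in each library), so whole reads could be recovered, from 796921 to 2341410 per library. Precision is limited by these depths and by the spread between replicates.

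The 22338 transcripts were named through RefSeq (21729, GRCm38.p6) or GENCODE M21 (120), with 489 unnamed. Identical rows of a gene were counted once (2169 dropped) and distinct ones summed, giving 19455 genes. Duplicate libraries, present at 0 h and 8 h, were averaged, while replicates at 4 h had no duplicates. This left 2 replicates per genotype and time, all weighted equally. Limma 3.58.1 in R 4.3.3 was fitted on log2(FPM + 1), a scale that understates changes of low genes. Its empirical Bayes step used a trend of spread on level. Genes needed at least 5 FPM in 2 replicate means, and p-values were adjusted by Benjamini-Hochberg over all genes tested at a threshold of 0.05. Comparisons at 0 h used 10 replicate means (8697 genes) and those over time 30 (9078 genes). All knockout comparisons with WT share the WT libraries. The scripts were tested on simulated data with known changes.

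The members and lists were chosen with earlier results of these data known. All members are accounted for: values by group are given for the 22 that passed in a knockout comparison with WT or a decay difference, ranges and counts for the others, and the 4 highest and 4 lowest values for the WT time course. Alternatives were TMM scaling, a pseudocount of 0.25, no filter, a plain sum of transcripts, a spread pooled over all times, a replicate block, each replicate left out, and edgeR 4.0.16 on the recovered reads. TMM factors were applied to the sum of reads in listed genes, in place of the library total. At 0 h edgeR called 187, 698, 392 and 1879 genes against WT (Ythdf1_KO, Ythdf2_KO, Ythdf3_KO, Triple_KO), and limma 228, 713, 388 and 1906. Replicate pairs and duplicate libraries differed by more than sampling noise in every pair. The median chi-square of read counts per degree of freedom was 1.40 over 45 pairs of A against B. It was 1.46 over 20 pairs of duplicates of 1 replicate, so no added spread between A and B was seen.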

Additional observations from a re-analysis of the deposited data

Results flagged for a closer look

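In 12 of 220 groups of 4 libraries looked at, for the 22 members with values by group, 1 library stood apart from the other 3 by Dixon's criterion. Chance gives about 1 such group in 20, which is near the share seen here. In Ythdf1_KO at 0 h, 1 library had 77.3 FPM of Pfkp (others 94.2 to 95.2), 1 had 212 FPM of Pgk1 (164.9 to 166) and 1 had 13.2 FPM of Bnip3 (6.37 to 7.30). At 8 h in the same genotype, 1 library had 196 FPM of Pgk1 (170 to 174), 1 had 542 FPM of Eno1b (489.6 to 497) and 1 had 12.2 FPM of Bnip3 (5.22 to 6.27). In Ythdf2_KO at 0 h, 1 library had 239 FPM of Pgk1 (219 to 219.7) and another 547 FPM of Eno1 (570.2 to 573). One Triple_KO library at 0 h had 361 FPM of Eno1b (337 to 341), and 1 Ythdf3_KO library at 0 h had 44.3 FPM of Slc16a3 (62.1 to 64.2). One WT library at 0 h was high for both Ldhb, at 54.7 FPM (48.9 to 49.3), and Slc16a6, at 8.83 FPM (1.69 to 2.80).

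The decay of 3 of the 31 tested members differed from WT by the interaction test of genotype and time. Over all genes 0.0441% were higher in Ythdf1_KO and 7.22% in Triple_KO, while 0.176% were lower in Ythdf2_KO and 0.33% in Ythdf3_KO. The 2 of 31 members higher in Triple_KO are near the share of all genes there. Slc2a1 differed by 0.85 in Ythdf1_KO and 1.15 in Triple_KO, Pkm by -0.22 in Ythdf2_KO and -0.22 in Ythdf3_KO, and Aldoa by 0.25 in Triple_KO. After TMM scaling Pkm no longer passed in Ythdf2_KO or Ythdf3_KO, and the value of Aldoa changed sign. Slc2a1 still passed in both knockouts then, but in Ythdf1_KO it depended on which replicates were kept. The calls of Pkm and Aldoa depended on the replicates too. Pkm also did not pass with a pseudocount of 0.25, with no filter or with a plain sum of transcripts.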

How the results depend on the processing

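At 0 h the direction of every member that passed was kept under each alternative run. With no filter, members passing numbered 1 in Ythdf1_KO and 4 in Ythdf3_KO against WT, 6 and 2 in Ythdf2_KO and Ythdf3_KO against Ythdf1_KO, 1 in the Triple_KO decay difference, and 0 in those of Ythdf2_KO and Ythdf3_KO. A spread pooled over all times gave 0 in Ythdf1_KO, 5 in Ythdf3_KO, 7 and 5 in Ythdf2_KO and Ythdf3_KO against Ythdf1_KO, and 0 in Ythdf2_KO against Ythdf3_KO. Against WT, that spread left 14 of 20 members passing for Triple_KO and 11 of 14 for Ythdf2_KO. TMM scaling, a pseudocount of 0.25 and a plain sum of transcripts each gave 0 in the Ythdf2_KO and Ythdf3_KO decay differences, and in that of Triple_KO the plain sum gave 4 and edgeR 7. The cause of these shifts was not tested. The TMM setting also changed the denominator from the library total to the reads in listed genes. TMM scaling moved the median of all genes by 0.32 in WT at 4 h, 0.62 in WT at 8 h, 0.11 in the Ythdf2_KO decay difference and -0.29 in that of Triple_KO, and it turned Slc2a3 in WT to 0.14 at 4 h and 0.044 at 8 h, Pfkp and Aldoa in WT at 8 h to 0.22 and 0.48, and Aldoa in the Triple_KO decay difference to -0.081.

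With 1 replicate left out, where the lone replicate is assumed to vary like the other groups, members passing ranged from 1 to 3 in Ythdf1_KO, 10 to 14 in Ythdf2_KO, 7 to 11 in Ythdf3_KO and 17 to 18 in Triple_KO. They ranged from 7 to 9 in Ythdf2_KO against Ythdf1_KO, 5 to 8 in Ythdf3_KO against Ythdf1_KO, 0 to 1 in Ythdf2_KO against Ythdf3_KO and 17 to 21 in Triple_KO against the single knockouts. In WT they ranged from 7 to 11 at 4 h and 8 to 10 at 8 h. In the decay differences they ranged from 0 to 1 in Ythdf1_KO, 0 to 0 in Ythdf2_KO and in Ythdf3_KO, and 1 to 3 in Triple_KO. The letters A and B did not pair the samples: A minus B differences correlated from -0.022 to 0.024 between genotypes. The replicate block left members passing at 3, 14, 12 and 20 in Ythdf1_KO, Ythdf2_KO, Ythdf3_KO and Triple_KO, at 12 in each WT time comparison, at 1, 1, 1 and 2 in the decay differences, and at 10 instead of 9 in Ythdf3_KO against Ythdf1_KO.

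Over all genes, the following counts moved by more than 1.5 times when a setting other than a left-out replicate was changed. No filter gave 57 for Ythdf1_KO (228), 312 for Ythdf2_KO (713), 102 for Ythdf3_KO (388), 89 for Ythdf2_KO against Ythdf1_KO (289), 30 for Ythdf3_KO against Ythdf1_KO (194), 40 for Ythdf2_KO against Ythdf3_KO (104), and 0, 1 and 422 for the Ythdf2_KO, Ythdf3_KO and Triple_KO decay differences (16, 30 and 657). The pooled spread gave 20, 138, 59 and 557 for the 4 knockouts (1906 in Triple_KO), 55, 32 and 27 between single knockouts, and 632 for Triple_KO against them (2003). In the decay differences TMM scaling gave 18 for Ythdf1_KO (4), 0, 6 and 151 for the others, and edgeR 32, 74 and 1292. A plain sum gave 113 for Ythdf3_KO against Ythdf1_KO and 1 and 3 for the Ythdf1_KO and Ythdf2_KO decay differences, and a pseudocount of 0.25 gave 1 for that of Ythdf2_KO. With 1 replicate left out, the lowest such counts were 105, 349, 173 and 1129 for the 4 knockouts, 135, 69 and 48 between single knockouts, 1042 for Triple_KO against them, 1591 in WT at 4 h (2802), and 0, 0, 6 and 183 for the decay differences. In WT at 8 h none moved that far. Depth limits members on few reads, among them Pdk1, P4ha2, Eno3, Egln1 and Pdk3, with replicate means of at most 5.36, 8.94, 9.43, 9.66 and 11.4 FPM at 0 h.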
